A study of Sus scrofa with 18 samples.

Results

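The measurement described here was the interaction between plasmid and leukocyte contact in porcine kidney cells: whether co-culture went with a different change in expression in cells given ST8Sia6 plasmid than in cells given control GFP plasmid. It was computed from raw RNA-sequencing counts over 16 of the series' 18 libraries, in 4 blocks of 4 libraries set by column number. KEC1-7 stands for columns KEC1, KEC3, KEC5 and KEC7 and was taken as GFP plasmid alone. KEC9-15 stands for KEC9, KEC11, KEC13 and KEC15 and was taken as ST8Sia6 plasmid alone. KEC17-23 (KEC17, KEC19, KEC21 and KEC23) was taken as GFP plasmid with co-culture, and KEC25-31 (KEC25, KEC27, KEC29 and KEC31) as ST8Sia6 plasmid with co-culture. The interaction of a gene is the log2 difference KEC25-31 minus KEC9-15, minus the log2 difference KEC17-23 minus KEC1-7. A positive value means that the contact difference was higher, or less negative, in the ST8Sia6 blocks.

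The blocks follow column numbers and not the sample labels, and 4 of the 16 libraries carry a label that names another group. KEC9 is labelled GFP control, KEC17 and KEC19 are labelled St8i6a plasmid, and KEC31 is labelled Wild type. The libraries KEC21 to KEC29 are labelled cell-cell interaction with no plasmid named, so the plasmid of the co-culture blocks rests on the column numbers. The headers of the authors' deposited tables name 4 comparisons among GFP control, St8i6a plasmid, Cell cell interaction GFP and Cell cell interaction st8i6a. Refitting those comparisons on the column blocks returned the authors' deposited log2 fold changes for all 15240 genes to within 7.21e-14 and their p-values to within 1.79e-08. The authors' comparisons were therefore computed on these blocks. The counts of calls and the gene lists with most calls are given below over the 16 libraries and without the 4 libraries whose label disagrees.

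All cells came from 1 purchased line of primary porcine kidney endothelial cells frozen at passage 5, and all 4 blocks had been through Lipofectamine LTX transfection, per the labels' protocols. Cells were taken 24 hours after transfection, the plasmid-alone cells from 4 experiments and the co-cultured cells after contact with PBMCs, the mononuclear cells of blood, of 4 individuals. No label ties a library to an experiment or an individual, and p-values here measure the spread between these libraries. Each library is a bulk sample, in which a change in the number of cells of a type and a change in RNA per cell cannot be told apart.

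ST8Sia6 is a sialyltransferase of the Golgi that adds alpha-2,8-linked sialic acid to sugar chains, and glycans ending in this linkage are ligands of inhibitory Siglec receptors on leukocytes. Contact with leukocytes exposes kidney and vessel cells to interferons and inflammatory cytokines, which are known to raise chemokines and antigen presentation genes. Matrix genes such as collagens are the typical products of mesenchymal and perivascular cells, and the replication genes are switched on by E2F factors as cells enter S phase.

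The gene of the plasmid did not separate the blocks. ST8SIA6 (ENSSSCG00000011034.4, susScr11 chromosome 10, 43601674 to 43755140) had 0, 27, 0 and 5 counts in KEC1, KEC3, KEC5 and KEC7, and 1, 59, 0 and 3 counts in KEC9, KEC11, KEC13 and KEC15. It had 0, 61, 0 and 439 counts in KEC17, KEC19, KEC21 and KEC23, and 0, 24, 2 and 1 counts in KEC25, KEC27, KEC29 and KEC31. The highest level was thus in KEC23, a library taken as GFP, and each block held at least 1 library with 0 counts, which allows up to 0.0852 to 0.179 CPM in these libraries by a floor of 3 counts (counting error only). Block means were 0.29 ± 0.457, 0.573 ± 1.05, 7.79 ± 13.8 and 0.363 ± 0.657 CPM (SD, n = 4) in KEC1-7, KEC9-15, KEC17-23 and KEC25-31. Its interaction was -1.79 on the log2(CPM + 0.5) scale, with p = 0.298 in an exact two-sided permutation test over 4900 regroupings. The regroupings moved libraries between the plasmid blocks, separately with and without contact. The test is thus exact only if the plasmid had no effect in either. The labels do not give the species of the plasmid's ST8Sia6, and counts of the porcine gene may not count it.

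Total counts ran from 14867035 to 33301008 a library. Mitochondrially encoded genes took 1.04 to 1.84% of counts in KEC1-7 and 1.33 to 1.75% in KEC9-15, and 12.99 to 17.98% in KEC17-23. In KEC25-31 they took 22.8% and 23.9% in KEC25 and KEC27 but 3.06% and 2.13% in KEC29 and KEC31. Within blocks the first 2 and the last 2 libraries deviated together: over 10373 genes, which are not independent, the deviations from the block mean correlated at 0.72 and 0.81 in KEC1-7, at 0.85 and 0.39 in KEC9-15, at 0.35 and 0.26 in KEC17-23, and at 0.80 and 0.69 in KEC25-31. The cells showed few endothelial markers. PECAM1 was at 0.884 to 4.99 CPM and ERG at 0 to 1.49 CPM over the 16 libraries and FLT1 at 34.9 to 154.7 CPM, while the epithelial keratin KRT8 was at 557 to 1531 CPM, the kidney epithelial factor PAX2 at 101 to 189 CPM and the fibrillar collagen COL1A1 at 2846 to 17750 CPM. Of 27 endothelial markers 15 were in the tables, and CDH5, VWF and KDR were not analysed here, so the cells are called kidney cells. Kidney epithelial markers were not all high either. Of 39 listed, 27 had counts, and EPCAM was at 0.2985 to 20.42 CPM and LRP2 at 0.7073 to 2.155 CPM. Pan-leukocyte markers (16 of 21 in the tables) summed to 44.5 to 151 CPM in KEC1-7, 52.2 to 68.5 in KEC9-15, 48.4 to 56.2 in KEC17-23 and 56.2 to 76.9 in KEC25-31. Monocyte and macrophage markers (13 of 28) summed to 53.8 to 79.6, 66.2 to 260.3, 35.6 to 39.2 and 45.5 to 169.8 CPM in the same order. These sums rest on few genes. The highest monocyte list members were VCAN and CD14, at means of 51.4 and 10.6 CPM over the 16 libraries. The highest pan-leukocyte members were ARHGDIB, LCP1 and ITGAL, at 19.5, 15.6 and 15.3 CPM. Whether the sums measure leukocyte content was not tested. The leukocyte marker PTPRC (CD45) was at 4.03, 7.97, 0 and 0 CPM in KEC1, KEC3, KEC5 and KEC7, and at 0, 0, 2.12 and 0.547 CPM in KEC25, KEC27, KEC29 and KEC31. It was at 0, 0, 0.389 and 0.485 CPM in KEC9, KEC11, KEC13 and KEC15, and at 0 in all 4 libraries of KEC17-23.

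Of 14690 genes tested, 436 passed an adjusted p under 0.05 for the interaction, which is 2.97% (edgeR's quasi-likelihood test, Benjamini-Hochberg). Positive values made up 297 of the calls (2.02% of genes tested) and negative values 139 (0.946%). The median interaction of all genes tested was 0.03, and 3652 genes (24.9%) had an unadjusted p under 0.05. Among the called genes the median absolute log2 interaction was 1.59, the smallest 0.49, and 351 reached at least 1. The interaction taken from the authors' deposited table had the same sign for all 436 and differed by at most 0.04. Both come from the same counts and blocks, so this is no independent support.

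Most calls were crossings, in which the contact difference had opposite signs under the 2 plasmids. Of the 297 positive calls, 184 had a lower mean in KEC17-23 than in KEC1-7 (median log2 difference -1.04) and a higher mean in KEC25-31 than in KEC9-15 (median 0.47). A further 96 were lower after contact in both pairs of blocks, by a median of -2.21 in the GFP pair and -0.38 in the ST8Sia6 pair, and 17 were higher in both, by 0.70 and 3.41. Of the 139 negative calls, 122 were higher after contact in the GFP pair (median 0.63) and lower in the ST8Sia6 pair (median -0.49), 16 were higher in both by 1.42 and 0.30, and 1 was lower in both. The difference within each pair was not tested on its own here. Of the positive calls 292 had a lower mean in KEC9-15 than in KEC1-7 and 296 a higher mean in KEC25-31 than in KEC17-23. All 139 negative calls had a higher mean in KEC9-15 than in KEC1-7 and 138 a lower mean in KEC25-31 than in KEC17-23. The interaction is built from these differences, so its calls are picked toward such signs. The share of all genes tested with these signs, or with a crossing, was not counted. Libraries seldom separated without overlap: in 31 of the 436 called genes, and in 35 (0.238%) of all genes tested, every library of KEC1-7 and KEC25-31 lay on 1 side of every library of KEC9-15 and KEC17-23.

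**Figure D1:**
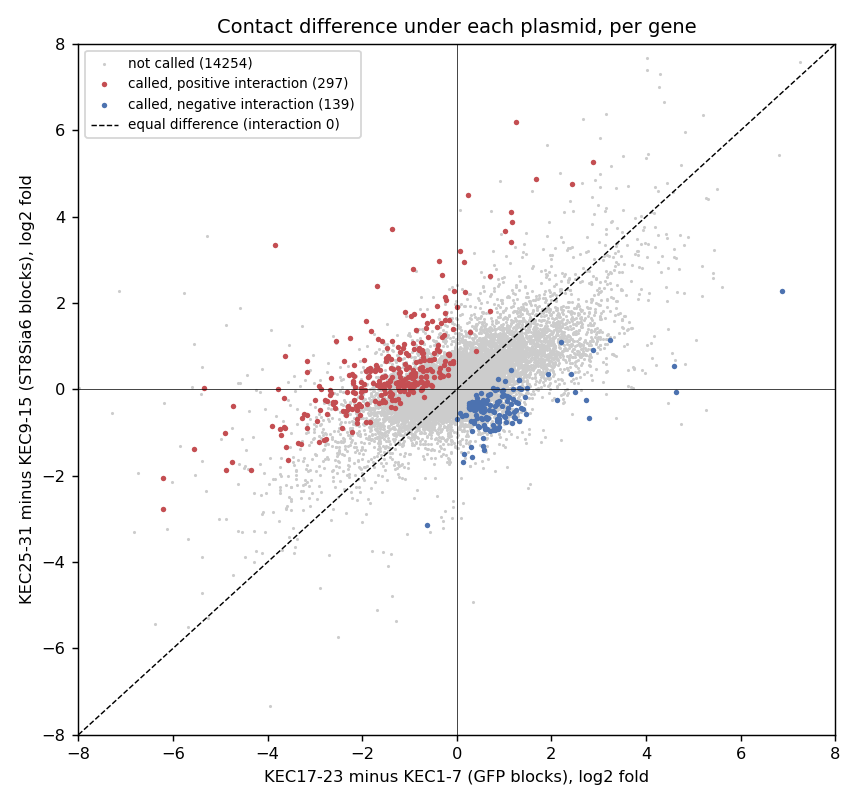
Contact difference of each tested gene on the log2 scale, in the GFP blocks (horizontal axis) and in the ST8Sia6 blocks (vertical axis). Points on the dashed line have no interaction. The 297 positive calls (red) lie above it and the 139 negative calls (blue) below it, most of them in the quadrants of opposite sign. The 9 genes beyond 8 on either axis are not drawn.

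The number of calls depended on single libraries. Without the 4 libraries whose label disagrees, 1 gene was called, AEBP1, with 1807 genes at an unadjusted p under 0.05. All 436 genes had the same sign in that fit and 435 of them an unadjusted p under 0.05, with 2 to 4 libraries left per block. The 436 genes were picked on a fit that holds these same libraries, so this is no independent support. Against the total of 436, leaving out 1 library gave 1131 calls without KEC1, 1072 without KEC3, 116 without KEC5, 104 without KEC7, 79 without KEC9 and 76 without KEC11. It gave 161 without KEC13, 725 without KEC15, 83 without KEC17, 184 without KEC19, 105 without KEC21 and 175 without KEC23. It gave 1229 without KEC25, 335 without KEC27, 153 without KEC29 and 76 without KEC31. Without both KEC29 and KEC31, the co-culture libraries of low mitochondrial share, 78 genes were called, of which 56 were among the 436. Fits on 2 libraries of each block, added after the data were seen, called 2300 genes in the first 2 libraries and 6183 in the last 2.

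**Figure D2:**
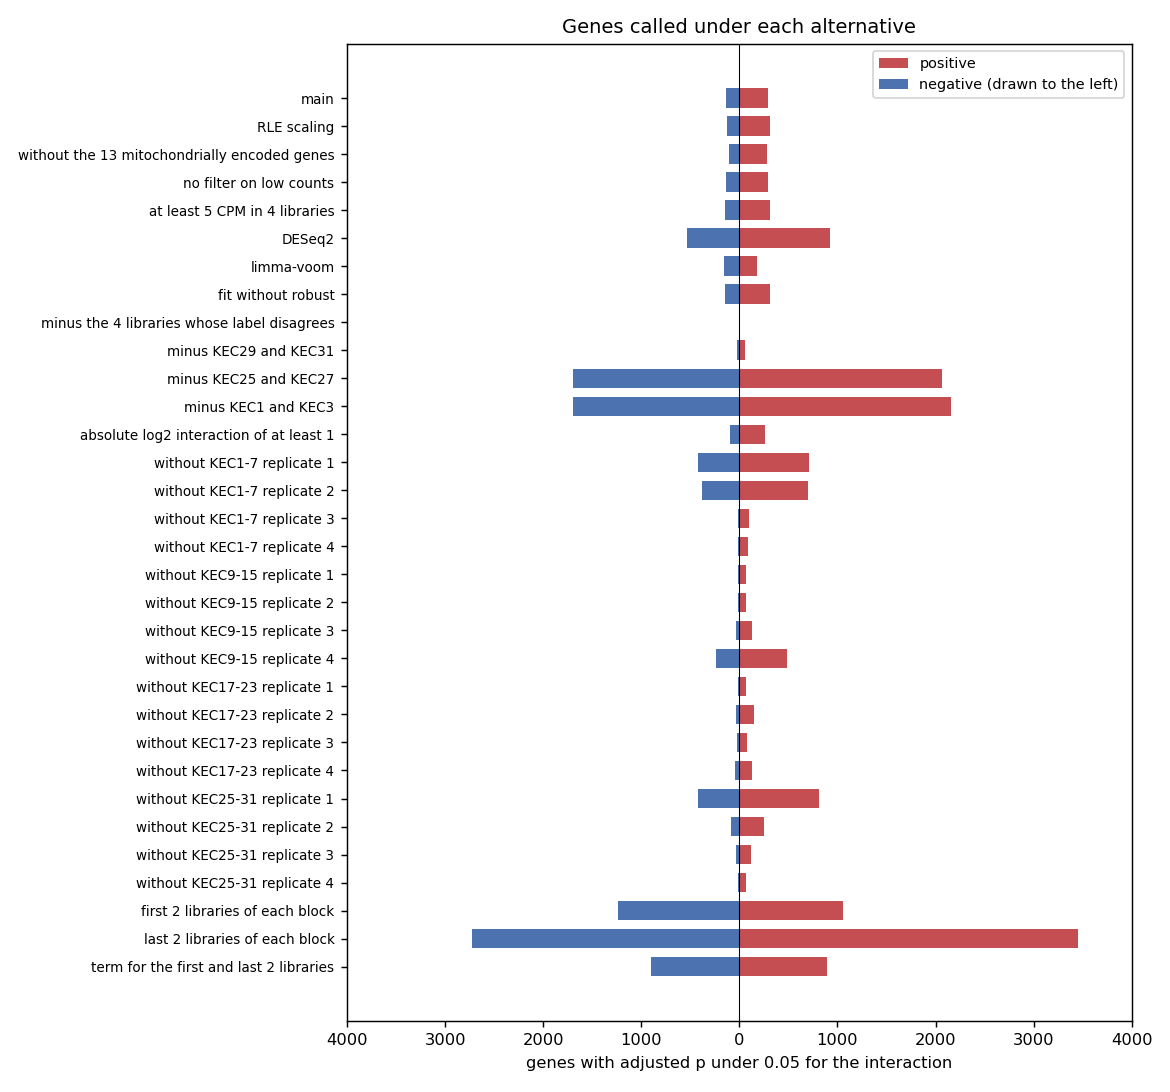
Number of genes called for the interaction under each alternative, positive to the right and negative to the left of 0. The first bar is the fit over 16 libraries, with 297 and 139 genes. The fit without the 4 libraries whose label disagrees called 1 gene, and the fit on the last 2 libraries of each block called 6183.

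The gene with the lowest p was AEBP1, a secreted collagen-binding protein of fibroblasts and smooth muscle cells (susScr11 chromosome 18, 51046896 to 51056698). Its level was 114, 110.2, 144 and 129.6 CPM in KEC1, KEC3, KEC5 and KEC7, and 50.6, 52.02, 61.2 and 50.8 CPM in KEC9, KEC11, KEC13 and KEC15. It was 22.8, 28.5, 29.3 and 30.2 CPM in KEC17, KEC19, KEC21 and KEC23, and 55.7, 69.3, 69.6 and 72.1 CPM in KEC25, KEC27, KEC29 and KEC31. All of KEC17-23 lay below all of KEC1-7, and KEC25-31 lay above KEC9-15 except that KEC25 (55.7) was below KEC13 (61.2). Block means were 124 ± 15.2, 53.7 ± 5.07, 27.7 ± 3.34 and 66.7 ± 7.42 CPM (SD, n = 4), and the interaction was 2.48 ± 0.18 (SE, adjusted p = 3.6e-06). Without the 4 libraries it was 2.35 (adjusted p = 0.004), the only call that fit made.

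BGN, the matrix proteoglycan biglycan (susScr11 chromosome X, 124282224 to 124295448), had block means of 95.4 ± 14.7, 66.8 ± 5.91, 46.6 ± 6.81 and 116 ± 11.6 CPM and an interaction of 1.84 ± 0.19 (adjusted p = 4.0e-04). Every library of KEC1-7 and KEC25-31, at 79.4 CPM or more, was above every library of KEC9-15 and KEC17-23, at 74.1 CPM or less. ADAM19, a membrane metalloprotease, also separated in this way, with means of 49.7 ± 3.19, 29.3 ± 4.47, 31.6 ± 3.78 and 77.9 ± 28.6 CPM and an interaction of 2.07 ± 0.29 (adjusted p = 0.0072). THBS2, the matrix glycoprotein thrombospondin 2, had means of 8.93 ± 1.08, 4.83 ± 0.924, 7.57 ± 1.75 and 21.3 ± 4.35 CPM, an interaction of 2.38 ± 0.28 (adjusted p = 0.0015), and in KEC25-31 its highest 4 libraries of the 16. CCN4, a secreted matricellular protein and Wnt target, was at 32.4 CPM or more in every plasmid-alone library and at 28.6 CPM or less in every contact library. Its means were 42.8 ± 6.28, 40.7 ± 14.2, 4.78 ± 0.942 and 21.7 ± 6.21 CPM and its interaction 2.26 ± 0.34 (adjusted p = 0.0081). LOXL1, a lysyl oxidase that cross-links elastin, had means of 114 ± 33.1, 58.1 ± 11.9, 25.1 ± 2.81 and 49.2 ± 11.4 CPM and an interaction of 1.94 ± 0.30 (adjusted p = 0.0081). PTN, the heparin-binding growth factor pleiotrophin, had means of 25.1 ± 2.22, 11.2 ± 3.27, 13.3 ± 1.38 and 21.5 ± 5.39 CPM and an interaction of 1.86 ± 0.28 (adjusted p = 0.0081). These 6 genes were called with any 1 library left out.

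MMP2, the gelatinase that degrades basement membrane collagen (susScr11 chromosome 6, 30058594 to 30086982), was at 11.1, 10.6, 19.8 and 18.3 CPM in KEC1, KEC3, KEC5 and KEC7, and 9.61, 10.6, 13.6 and 12.99 CPM in KEC9, KEC11, KEC13 and KEC15. It was at 2.06, 3.25, 3.16 and 4.84 CPM in KEC17, KEC19, KEC21 and KEC23, and 11.3, 14.3, 22.3 and 21.5 CPM in KEC25, KEC27, KEC29 and KEC31. All libraries of KEC17-23 were below all other libraries, and KEC25-31 overlapped both plasmid-alone blocks. Means were 14.96 ± 4.78, 11.7 ± 1.88, 3.33 ± 1.14 and 17.4 ± 5.41 CPM and the interaction 2.75 ± 0.40 (adjusted p = 0.0081). DES encodes desmin, the intermediate filament of muscle cells and pericytes (susScr11 chromosome 15, 121427103 to 121435424). It was at 13.2, 10.9, 14.1 and 13.7 CPM in KEC1, KEC3, KEC5 and KEC7, and 3.08, 3.29, 6.90 and 4.53 CPM in KEC9, KEC11, KEC13 and KEC15. It was at 17.4, 24.5, 32.2 and 42.7 CPM in KEC17, KEC19, KEC21 and KEC23, and 63.1, 81.5, 40.04 and 77.9 CPM in KEC25, KEC27, KEC29 and KEC31. Both contact blocks were above their no-contact blocks, from 12.98 ± 1.43 to 29.2 ± 10.8 CPM in the GFP pair and from 4.45 ± 1.75 to 65.6 ± 18.8 CPM in the ST8Sia6 pair, and the interaction was 2.71 ± 0.41 (adjusted p = 0.0081).

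**Figure D3:**
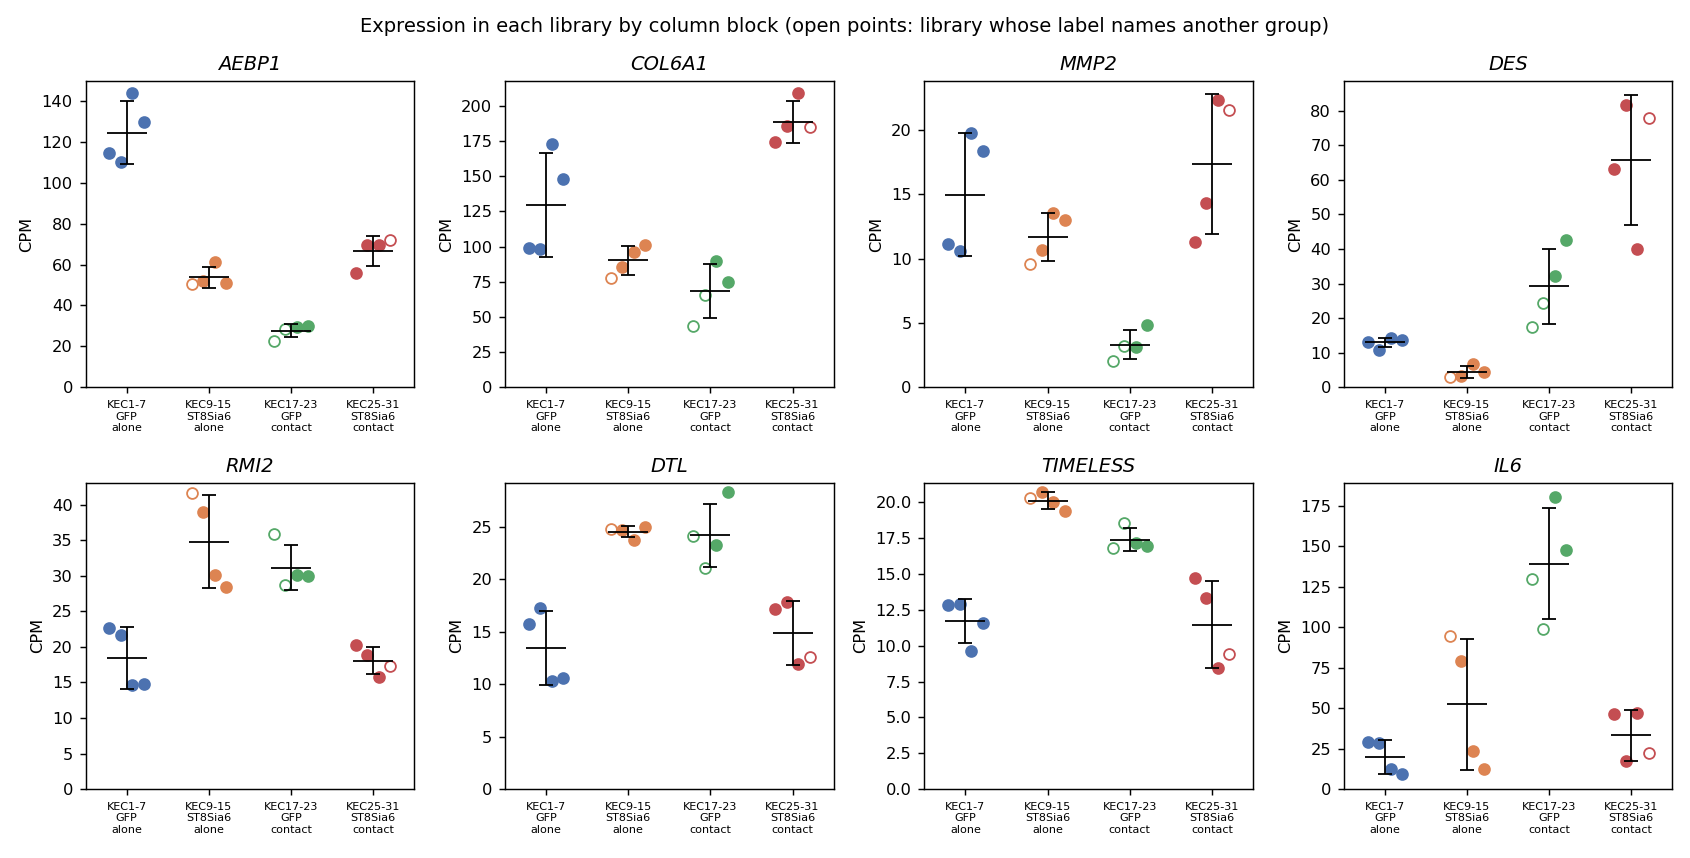
Level in CPM of 8 called genes in each library, by column block. Points are libraries, open where the label names another group, and bars are the block mean and SD (n = 4). In the upper row KEC25-31 is high relative to KEC17-23, and in the lower row it is low, with RMI2, DTL and TIMELESS separated between the pair KEC1-7 and KEC25-31 and the pair KEC9-15 and KEC17-23.

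Of 40 tested genes of the mesenchymal and extracellular matrix list, 9 were called, all positive, against 2.02% of all genes called positive. In the list 38 of 40 interactions were above 0, with a median of 1.195 against 0.03 over all genes. COL6A1, a chain of the microfibril-forming collagen VI (susScr11 chromosome 13, 208295240 to 208313127), was at 99.4, 98.4, 173 and 148 CPM in KEC1, KEC3, KEC5 and KEC7, and 77.8, 85.9, 96.1 and 101 CPM in KEC9, KEC11, KEC13 and KEC15. It was at 43.5, 65.6, 89.6 and 74.8 CPM in KEC17, KEC19, KEC21 and KEC23, and 174, 186, 209 and 185 CPM in KEC25, KEC27, KEC29 and KEC31. All 4 libraries of KEC25-31 were above the other 12, and KEC17-23 overlapped KEC9-15. The interaction was 1.99 ± 0.30 (adjusted p = 0.0081). The other chains COL6A2 (1.86 ± 0.31, adjusted p = 0.0087) and COL6A3 (2.32 ± 0.42, adjusted p = 0.015) were called as well. COL1A1, a chain of fibrillar collagen I, had means of 8680 ± 2587, 5150 ± 1249, 3355 ± 351 and 11150 ± 7172 CPM and an interaction of 2.48 ± 0.56 (adjusted p = 0.032). Its partner chain COL1A2 did not pass (2.21 ± 0.64, adjusted p = 0.069). Its 2 libraries KEC29 and KEC31 were at 16930 and 16860 CPM, while KEC25 and KEC27 were at 3398 and 4693. SPARC, a collagen-binding matricellular protein, was called at 2.26 ± 0.46 (adjusted p = 0.024), NID1, a basement membrane linker, at 2.39 ± 0.48 (adjusted p = 0.023), and POSTN, periostin, at 3.15 ± 0.81 (adjusted p = 0.048). PDGFRB, the PDGF receptor of pericytes and fibroblasts, had means of 2.69 ± 1.26, 1.42 ± 0.280, 14.4 ± 5.04 and 38.9 ± 13.6 CPM and an interaction of 2.33 ± 0.49 (adjusted p = 0.025).

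The level of this list moved with the libraries that stand apart in KEC25-31. Its mean log2(CPM + 0.5) was 7.73, 7.93, 8.67 and 8.67 in KEC25, KEC27, KEC29 and KEC31, against 7.15 to 7.42 in KEC17-23, 7.46 to 7.76 in KEC9-15 and 7.64 to 8.07 in KEC1-7. Without KEC29 and KEC31, 6 members were called and 36 of 40 were above 0, with a median of 0.52. Without the 4 libraries whose label disagrees none was called, 38 were above 0 and the median was 1.06. With 1 library left out, 4 to 6 members were called without KEC5, KEC7, KEC9, KEC11, KEC17, KEC21 or KEC31, 15 to 21 without KEC1, KEC3, KEC25 or KEC27, and 7 to 11 without any of the others. All these calls were positive, and the median was 0.95 to 1.35. The part of the mitochondrial share and of these libraries in the result was not tested.

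**Figure D4:**
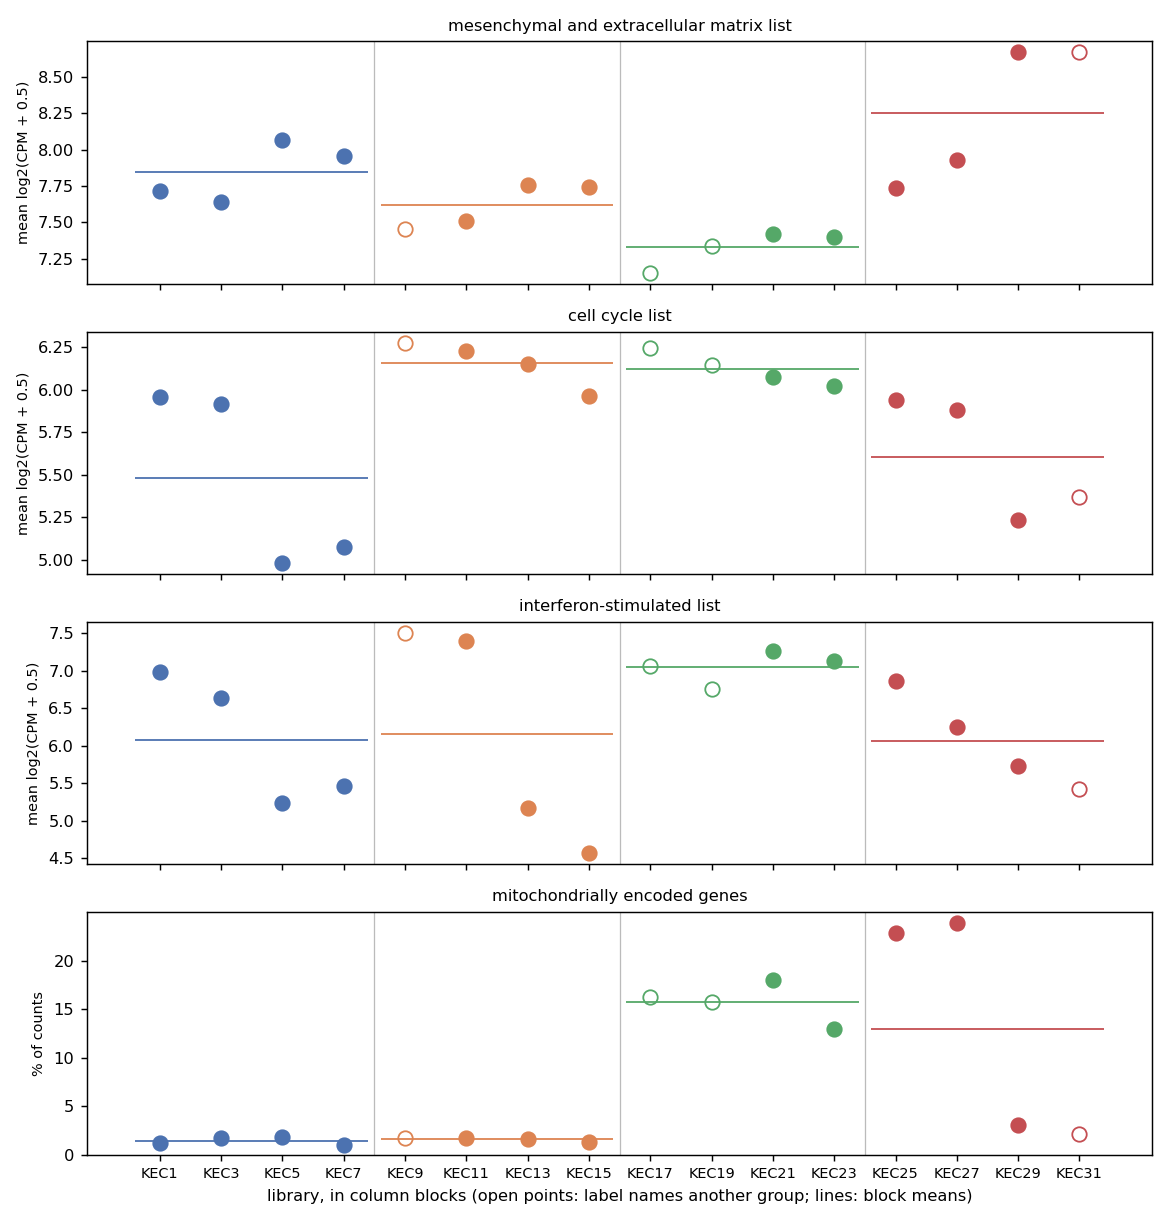
Mean log2(CPM + 0.5) of the tested genes of 3 lists, and the percentage of counts in the 13 mitochondrially encoded genes, in each library. Open points are libraries whose label names another group and lines are block means. KEC29 and KEC31 stand apart from KEC25 and KEC27 in the matrix list, the cell cycle list and the mitochondrial share, and KEC5 and KEC7 stand apart from KEC1 and KEC3 in the cell cycle and interferon lists.

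Among genes of coagulation and thromboregulation, 5 of 21 tested were called, all positive, against 2.02% of all genes called positive. In this list 17 were above 0 (median 0.57), against 7652 of 14690 genes in all. F3, tissue factor, the starter of the extrinsic clotting cascade, was at 18.7, 19.6, 30.1 and 24.2 CPM in KEC1, KEC3, KEC5 and KEC7, and 5.15, 5.22, 8.70 and 8.92 CPM in KEC9, KEC11, KEC13 and KEC15. It was at 13.5, 16.9, 14.97 and 24.01 CPM in KEC17, KEC19, KEC21 and KEC23, and 14.8, 14.4, 40.7 and 35.96 CPM in KEC25, KEC27, KEC29 and KEC31. KEC9-15 lay below all other libraries, KEC29 and KEC31 held the highest levels, and the interaction was 2.34 ± 0.47 (adjusted p = 0.022), a call lost without KEC9, KEC11, KEC17, KEC21 or KEC31. F2R, the thrombin receptor PAR1, had means of 16.1 ± 0.727, 14.1 ± 3.35, 3.47 ± 0.753 and 10.2 ± 2.54 CPM. Every library of KEC17-23 was below every other library, and the interaction was 1.75 ± 0.29 (adjusted p = 0.0089). F2RL1, the related receptor PAR2 (1.63 ± 0.40, adjusted p = 0.043), TBXAS1, thromboxane synthase (2.24 ± 0.55, adjusted p = 0.043), and TBXA2R, the thromboxane receptor (0.93 ± 0.23, adjusted p = 0.041), were the other calls. Without KEC29 and KEC31, 1 of the 21 was called and 13 were above 0 (median 0.11). Without the 4 libraries whose label disagrees none was called and 18 were above 0 (median 0.66). With 1 library left out, 8 were called without KEC25, 4 to 6 without KEC1, KEC3, KEC15 or KEC27, and 1 to 3 without any of the others.

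Of the 10 negative calls named for their low p, RMI2, DTL, TIMELESS, MMS22L, DSCC1 and UNG are known for roles in DNA replication or repair, and GALNT14, ATAD2, ADM and CYP26B1 were the others. RMI2, a subunit of the complex that resolves DNA crossovers with BLM helicase (susScr11 chromosome 3, 31808015 to 31814843), was at 22.6, 21.7, 14.6 and 14.7 CPM in KEC1, KEC3, KEC5 and KEC7, and 41.7, 39.01, 30.1 and 28.3 CPM in KEC9, KEC11, KEC13 and KEC15. It was at 35.8, 28.7, 30.1 and 29.9 CPM in KEC17, KEC19, KEC21 and KEC23, and 20.3, 18.8, 15.8 and 17.3 CPM in KEC25, KEC27, KEC29 and KEC31. The pair KEC1-7 and KEC25-31, at 22.6 CPM or less, did not overlap the pair KEC9-15 and KEC17-23, at 28.3 CPM or more. The interaction was -1.70 ± 0.24 (adjusted p = 0.0072). DTL, the substrate receptor that directs CDT1 to degradation in S phase (susScr11 chromosome 9, 131182423 to 131275451), had means of 13.5 ± 3.55, 24.5 ± 0.527, 24.2 ± 3.03 and 14.9 ± 3.05 CPM and an interaction of -1.57 ± 0.25 (adjusted p = 0.0081). TIMELESS, which protects stalled replication forks, had means of 11.8 ± 1.53, 20.1 ± 0.578, 17.4 ± 0.808 and 11.5 ± 3.04 CPM and an interaction of -1.38 ± 0.22 (adjusted p = 0.0081). Both genes separated between the pairs in the same way as RMI2, as did MMS22L, a fork repair factor (16.9 ± 2.54, 25.2 ± 1.45, 24.1 ± 2.25 and 16.04 ± 1.80 CPM, interaction -1.17 ± 0.18, adjusted p = 0.0081), and DSCC1, a subunit of a clamp loader (4.35 ± 1.53, 8.33 ± 1.81, 8.01 ± 0.999 and 4.44 ± 0.950 CPM, -1.79 ± 0.35, adjusted p = 0.021). ATAD2, a bromodomain ATPase and E2F target, was at -1.57 ± 0.28 (adjusted p = 0.015), and UNG, the uracil glycosylase of base excision repair, at -1.16 ± 0.22 (adjusted p = 0.016). The call of DSCC1 was lost without KEC9, KEC11, KEC17 or KEC31, and the calls of the other 6 genes held with any 1 library left out.

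In the cell cycle list 8 of 35 tested genes were called, all negative, against 0.946% of all genes called negative, and 33 of 35 were below 0 (median -1.15). Most of the called members act at the start of replication. CDC45, part of the replicative helicase, was at 15.4, 19.2, 10.4 and 9.37 CPM in KEC1, KEC3, KEC5 and KEC7, and 26.03, 24.9, 27.4 and 23.1 CPM in KEC9, KEC11, KEC13 and KEC15. It was at 27.1, 31.7, 35.2 and 40.4 CPM in KEC17, KEC19, KEC21 and KEC23, and 26.99, 23.6, 16.5 and 15.1 CPM in KEC25, KEC27, KEC29 and KEC31. KEC5 and KEC7 were lowest, KEC29 and KEC31 were next to KEC1, and the interaction was -1.61 ± 0.32 (adjusted p = 0.022), a call lost without KEC31. CDC6, the licensing factor that loads the helicase, had means of 4.95 ± 2.46, 10.9 ± 1.90, 11.1 ± 1.04 and 6.36 ± 1.84 CPM and an interaction of -1.95 ± 0.42 (adjusted p = 0.027), a call lost in 8 of 16 fits with 1 library left out. The helicase subunits MCM2 (-1.29 ± 0.32), MCM3 (-1.48 ± 0.34), MCM4 (-1.42 ± 0.34) and MCM6 (-0.78 ± 0.18) were called with adjusted p from 0.033 to 0.042. RRM1, the large subunit of ribonucleotide reductase, was called at -0.75 ± 0.18 (adjusted p = 0.043). UHRF1, which maintains DNA methylation at replication forks, was called at -1.74 ± 0.38 (adjusted p = 0.029), a call lost in 11 of those fits. The 2 members above 0 were the D-type cyclins CCND1 (0.45 ± 0.29, adjusted p = 0.343) and CCND2 (1.05 ± 0.35, adjusted p = 0.095), and neither passed.

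The mean log2(CPM + 0.5) of the cell cycle list was 5.96, 5.92, 4.98 and 5.08 in KEC1, KEC3, KEC5 and KEC7 and 5.94, 5.88, 5.23 and 5.37 in KEC25, KEC27, KEC29 and KEC31. It was 5.96 to 6.28 in KEC9-15 and 6.02 to 6.24 in KEC17-23. The low values of KEC1-7 thus lay in KEC5 and KEC7, and those of KEC25-31 in KEC29 and KEC31. Without KEC29 and KEC31, and without the 4 libraries whose label disagrees, no member was called, 33 were below 0 in both fits, and the medians were -0.79 and -0.82. With 1 library left out, 18 to 20 members were called negative without KEC1, KEC3 or KEC25, 9 and 7 without KEC15 and KEC27, 0 without KEC31, and 1 to 3 without any of the others.

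Among cytokines and chemokines, 1 of 35 tested genes was called, a share close to the 2.97% of all genes, and the median was -0.25. With KEC29 and KEC31 left out, 3 were called, all negative, and the median was -0.67, and without the 4 libraries whose label disagrees none was called. IL6, the inflammatory cytokine interleukin 6 (susScr11 chromosome 9, 91506340 to 91511263), was at 29.3, 28.5, 12.2 and 9.37 CPM in KEC1, KEC3, KEC5 and KEC7, and 94.2, 78.9, 23.4 and 12.4 CPM in KEC9, KEC11, KEC13 and KEC15. It was at 129, 98.7, 180.5 and 148 CPM in KEC17, KEC19, KEC21 and KEC23, and 46.2, 17.2, 46.7 and 22.2 CPM in KEC25, KEC27, KEC29 and KEC31. All libraries of KEC17-23 were above all others, and KEC25-31 overlapped both plasmid-alone blocks. The mean after contact was thus 139 ± 34.2 CPM against 19.9 ± 10.6 in the GFP pair and 33.1 ± 15.6 against 52.2 ± 40.4 in the ST8Sia6 pair, with an interaction of -3.46 ± 0.78 (adjusted p = 0.033). This call was lost without any 1 of 10 libraries (KEC5, KEC7, KEC9, KEC11, KEC17, KEC21, KEC23, KEC27, KEC29 or KEC31). CXCL8, the neutrophil chemokine interleukin 8, had means of 12.6 ± 3.27, 33.9 ± 21.9, 352 ± 96.9 and 159 ± 94.9 CPM. Its interaction of -2.56 ± 0.72 did not pass (adjusted p = 0.062). CXCL2, a related neutrophil chemokine, had means of 41.7 ± 3.89, 109 ± 44.9, 287 ± 60.5 and 178 ± 119 CPM and did not pass either (-2.08 ± 0.58, adjusted p = 0.06). It was called without KEC29 and KEC31 (-3.09, adjusted p = 0.022). With a term added to the fit for whether a library was among the first or the last 2 of its block, a split seen in the data and not in the labels, both passed, CXCL8 at -2.56 (adjusted p = 0.034) and CXCL2 at -2.14 (adjusted p = 0.028). That fit called 1802 of 14690 genes. Its term was picked from these data, so both passes are no independent support.

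No gene of the 41 tested in the interferon-stimulated list was called, although 39 of 41 were below 0 (median -1.17). CXCL10, an interferon-induced chemokine, was at 96.4, 81.96, 1.39 and 1.04 CPM in KEC1, KEC3, KEC5 and KEC7, and 344, 262, 7.29 and 1.29 CPM in KEC9, KEC11, KEC13 and KEC15. It was at 114, 58.9, 198 and 160.2 CPM in KEC17, KEC19, KEC21 and KEC23, and 70.6, 13.9, 34.5 and 15.8 CPM in KEC25, KEC27, KEC29 and KEC31. The spread within KEC9-15 covered both contact blocks, and the interaction was -3.75 ± 1.90 (adjusted p = 0.229). The antiviral enzyme RSAD2 (-3.00 ± 1.48, adjusted p = 0.216), MX1 (-1.29 ± 0.92, adjusted p = 0.389) and the ubiquitin-like ISG15 (-1.20 ± 1.26, adjusted p = 0.566) did not pass either. These 4 genes were chosen after their values were seen, and the member with the lowest p was SOCS1, the feedback inhibitor of cytokine receptors (-2.11 ± 0.65, adjusted p = 0.081). The mean log2(CPM + 0.5) of the list was 6.99, 6.64, 5.23 and 5.46 in KEC1 to KEC7 and 7.51, 7.40, 5.17 and 4.56 in KEC9 to KEC15. It was 7.07, 6.75, 7.26 and 7.12 in KEC17 to KEC23 and 6.86, 6.25, 5.73 and 5.42 in KEC25 to KEC31. In the 3 blocks other than KEC17-23 the first 2 libraries were above the last 2. The fits on 2 libraries of each block called 24 members negative in the first 2 libraries of each block, where 2300 of 14562 genes were called. They called 23 members negative and 1 positive in the last 2, where 6183 of 14803 genes were called. With a term for this split over all 16 libraries, 5 of the 41 members were called, all negative, SOCS1 among them (-2.18, adjusted p = 0.031). That fit called 1802 of 14690 genes, a share close to that of the list. The split was picked from these data. The term takes it as equal in every block, although the list did not show it in KEC17-23. These calls are thus no independent support.

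In the sialic acid pathway list 2 of 22 tested genes were called, both positive, against 2.02% of all genes, and 16 were above 0 (median 0.59). The list held 1 positive call without KEC29 and KEC31, the median was 0.17, and without the 4 libraries whose label disagrees none was called and the median was 0.58. ST8SIA1, the synthase of ganglioside GD3 and a relative of the plasmid gene, was at 3.32, 3.38, 3.01 and 3.19 CPM in KEC1, KEC3, KEC5 and KEC7, and 2.31, 2.48, 1.63 and 3.78 CPM in KEC9, KEC11, KEC13 and KEC15. It was at 1.11, 1.86, 1.55 and 1.74 CPM in KEC17, KEC19, KEC21 and KEC23, and 3.88, 6.40, 3.23 and 4.37 CPM in KEC25, KEC27, KEC29 and KEC31. Its level was low in all blocks, KEC17-23 overlapped KEC9-15 (KEC13 at 1.63 CPM), and the interaction was 1.84 ± 0.38 (adjusted p = 0.024). SIAE, an esterase that removes acetyl groups from sialic acid, had means of 16.7 ± 9.83, 8.13 ± 2.59, 4.09 ± 0.768 and 8.28 ± 2.94 CPM and an interaction of 2.06 ± 0.53 (adjusted p = 0.049). NEU3, a sialidase of the plasma membrane, did not pass (0.73 ± 0.19, adjusted p = 0.053), and passed with the term for the first and last 2 libraries (0.72, adjusted p = 0.019). That term was picked from these data, so this pass is no independent support. The calls of ST8SIA1 and SIAE were lost in 6 and 12 of the fits with 1 library left out.

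Hypoxia and glycolysis genes gave 3 negative calls of 33 tested, against 0.946% of all genes called negative (median -0.11, 22 below 0). Without KEC29 and KEC31, and without the 4 libraries whose label disagrees, none was called, with medians of -0.24 and -0.13. ADM, the vasodilator peptide adrenomedullin, had means of 15.7 ± 5.35, 31.9 ± 9.90, 39.1 ± 9.49 and 19.1 ± 3.18 CPM and an interaction of -2.05 ± 0.38 (adjusted p = 0.015). EGLN3, a prolyl hydroxylase of the HIF pathway (-1.65 ± 0.39, adjusted p = 0.038), and ANKRD37, a HIF target (-1.66 ± 0.42, adjusted p = 0.047), were the others, with calls lost in 9 and 12 of the 16 fits with 1 library left out. Outside the lists, CYP26B1, the enzyme that breaks down retinoic acid, had means of 32.9 ± 3.45, 46.8 ± 16.99, 175 ± 54.7 and 59.98 ± 20.04 CPM and an interaction of -2.05 ± 0.40 (adjusted p = 0.022). Its contact libraries in the GFP pair were all above its libraries without contact, and the call was lost without KEC9, KEC11 or KEC17. GALNT14, a transferase that starts O-glycans, had means of 1.75 ± 0.384, 4.63 ± 0.824, 7.65 ± 2.003 and 3.90 ± 1.19 CPM and an interaction of -2.37 ± 0.35 (adjusted p = 0.0081).

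CLU, the chaperone and complement regulator clusterin, was the 1 call of 12 tested complement genes, against 2.02% of all genes called positive. Of these 12 genes 5 were above 0 and 7 below (median -0.17). The means of CLU were 9460 ± 4737, 4488 ± 1232, 972 ± 109 and 2826 ± 1543 CPM and its interaction 2.62 ± 0.57 (adjusted p = 0.028). Every contact library was below every plasmid-alone library of its own pair except KEC29 and KEC31, at 3973 and 4316 CPM. In the immediate early list 2 of 29 were called positive, against 2.02% of all genes. They were the growth factor response genes EGR2 (2.19 ± 0.48, adjusted p = 0.03) and EGR1 (1.19 ± 0.28, adjusted p = 0.038). In the lysosome and autophagy list 2 of 33 were called, WIPI1, a protein of early autophagosomes (1.41 ± 0.29, adjusted p = 0.024), and ULK1, the kinase that starts autophagy (0.60 ± 0.15, adjusted p = 0.046). The share of all genes called positive was again 2.02%, and 28 of these 33 were above 0 (median 0.52). The lysosome list without KEC29 and KEC31 held 0 positive calls and 1 negative call, with 22 above 0 (median 0.16), and the complement and immediate early lists held none. Other single calls were the stress gene GADD45A of 22 p53 and apoptosis genes (0.85 ± 0.17, adjusted p = 0.022) and ENG, a TGF-beta coreceptor, of 15 endothelial markers (1.86 ± 0.42, adjusted p = 0.033). Both were positive, against the same 2.02% of all genes. The tight junction gene OCLN of 25 kidney epithelial markers (-1.11 ± 0.24, adjusted p = 0.028), the secreted glycoprotein STC2 of 33 stress response genes (-1.11 ± 0.28, adjusted p = 0.046) and the cochaperone STIP1 of 20 heat shock genes (-0.73 ± 0.18, adjusted p = 0.045) were called negative, against 0.946% of all genes. The kidney epithelial list as a whole did not go the way of OCLN, with 17 of 25 above 0 and 8 below (median 0.26). GADD45A lost its call without KEC17, KEC21 or KEC31, and the other 9 genes of this paragraph lost it in 7 to 12 of the 16 fits with 1 library left out.

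**Figure D5:**
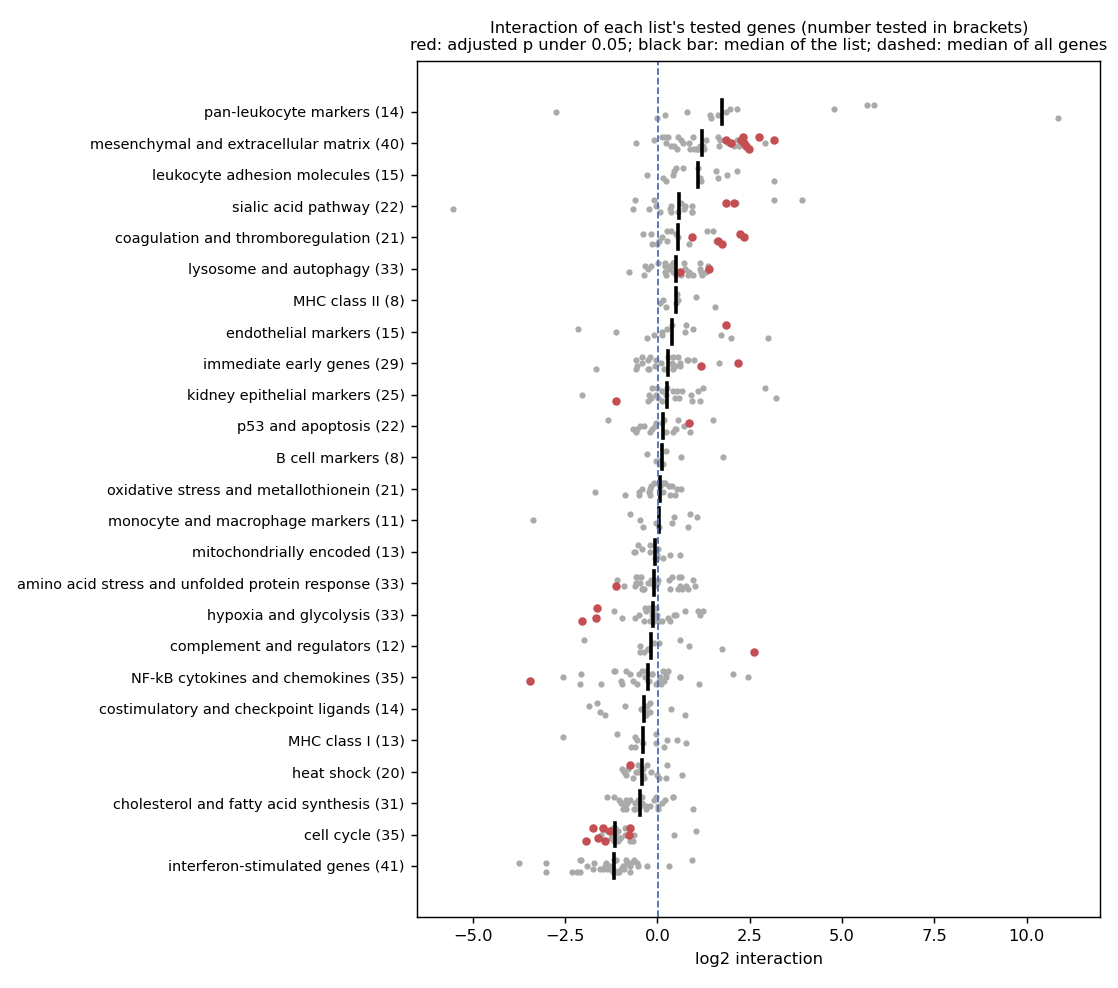
Interaction of each tested gene, by gene list, for lists with at least 8 tested genes. Red points passed an adjusted p under 0.05, black bars are list medians and the dashed line is the median of all genes. The matrix list (median 1.195) holds 9 positive calls, the cell cycle list (-1.15) 8 negative calls and the interferon list (-1.17) none.

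The lists of antigen presentation and leukocyte adhesion held no call over 16 libraries. With the term for the first and last 2 libraries, 2 of 13 MHC class I genes were called negative, and 1 of 8 MHC class II and 4 of 15 adhesion genes positive. That fit called 1802 of all 14690 genes. Its term was picked from these data, so these calls are no independent support. All 8 tested genes of the MHC class II list were above 0 (median 0.51), and the member with the lowest p, SLA-DQB1, had means of 153 ± 38.9, 75.3 ± 19.5, 12.8 ± 3.44 and 18.7 ± 10.1 CPM and an interaction of 1.57 ± 0.46 (adjusted p = 0.069). Its reads may be shared with near-identical SLA genes. Without KEC13, 7 of the 8 were above 0 (median 0.31), without KEC25 6 were above 0 with 1 called positive, and without KEC27 1 was called positive. Of 13 MHC class I genes 9 were below 0 (median -0.39). Without KEC25 1 of these was called negative. Without KEC9, KEC11 or KEC27, 7 were below 0, with medians of -0.18, -0.16 and -0.25. Of 15 adhesion genes 14 were above 0 (median 1.10). ITGAV, the integrin alpha V subunit, was at 246, 215, 794 and 665 CPM in KEC1, KEC3, KEC5 and KEC7. It was at 190, 234, 381 and 477 CPM in KEC9, KEC11, KEC13 and KEC15. In KEC17, KEC19, KEC21 and KEC23 it was at 70.5, 96.9, 51.3 and 68.3 CPM. In KEC25, KEC27, KEC29 and KEC31 it was at 83.1, 120.0, 776 and 728 CPM. Its interaction of 3.16 ± 0.88 did not pass (adjusted p = 0.061), but passed with the term for the first and last 2 libraries (2.38, adjusted p = 0.034). That term takes the split as equal in every block, although ITGAV was not higher in the last 2 libraries of KEC17-23. Without KEC29 and KEC31, 8 of the 15 were above 0 (median 0.14). The 13 mitochondrially encoded genes had a median interaction of -0.06 with none called, and this value depended on the libraries of KEC25-31. Without KEC25 and KEC27 the median was -2.67 with all 13 called negative, and without KEC29 and KEC31 it was 0.73 with all 13 above 0 and none called. By limma-voom it was -0.998 with all 13 below 0. Over 16 libraries CYTB was at -0.64 ± 0.79 (adjusted p = 0.631), with KEC29 and KEC31 at 551 and 427 CPM against 3731 and 4061 in KEC25 and KEC27. Lists of costimulatory ligands, cholesterol synthesis, oxidative stress and the leukocyte, B cell, T and NK cell, monocyte and platelet markers also held no call over 16 libraries. In the pan-leukocyte list 12 of 14 tested were above 0 (median 1.76). Without KEC1 and KEC3, 7 of 14 were above 0, with a median of 0.048 and 1 negative call, and without KEC3 alone the median was 1.095. PTPRC, the defining marker, did not pass over 16 libraries (adjusted p = 0.1).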

How the data were processed

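Total RNA of porcine kidney cells was sequenced, and 16 of 18 libraries were analysed in 4 column blocks of 4. The submitters' processing notes name the build susScr11 and the tools STAR 2.7.10a, Subread 2.0.3 (featureCounts), FastQC 0.11.5 and edgeR 3.40.2. The handling of strand, annotation and reads with several matches is not given in the sources used here, so genes with near-identical copies or antisense partners are uncertain. Raw gene counts are as the authors deposited them. Deposited log2 CPM and log2 fold changes are edgeR output of the authors. The log2 CPM could be recomputed from the counts to within 4.97e-14 (prior count 2). The p-value and FDR columns were deposited by the authors. A signed fold score and the gene length in bases were also deposited by the authors and not used. Symbols came from the authors' deposited tables for 11927 of 15240 genes and from an ID table for 65.

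The 2 by 2 model over 4 block means was fitted to counts with edgeR 4.0.16 (filterByExpr, TMM scaling, robust quasi-likelihood test, two-sided) in R 4.3.3. Benjamini-Hochberg adjustment ran over all 14690 genes tested, with a threshold of 0.05. SEs were derived from the F statistic. CPM are TMM-scaled over the 16 libraries. limma 3.58.1 and DESeq2 1.42.0 were alternatives. The script was tested on simulated counts. ST8SIA6 was tested by exact permutation. Alternatives were other scalings and filters, the tools above, no mitochondrial genes, and leaving out libraries. The labels give no replicate numbers for the blocks, so nothing was paired.

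Genes were named by rule: ST8SIA6, the 10 lowest p in each direction among called genes with a symbol and a block mean of at least 5 CPM, genes also called without the 4 libraries (which added none), and up to 3 lowest-p members of lists with a call or the lowest-p member of the others, at a mean of at least 1 CPM. List members called beyond these are given too, and PTPRC, COL1A2, CCND1, CCND2, CXCL10, RSAD2, MX1, ISG15 and the genes under the other observations were added after their values were seen. The libraries, the 27 lists and the rule were chosen with earlier results of these data known. Intervals and floors cover counting error only. PBMC species is not given in the labels. Sequences were not used here.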

Additional observations from a re-analysis of the deposited data

Results flagged for a closer look

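Single libraries stood apart from the other 3 of their block in 15 of 316 values tested by Dixon's ratio, and chance flags about 1 in 20 groups. AEBP1 was at 61.2 CPM in KEC13 against 50.6 to 52.02 in the other 3 libraries of KEC9-15. AEBP1 was at 55.7 CPM in KEC25 against 69.3 to 72.1 in the other 3 libraries of KEC25-31. BGN was at 36.4 CPM in KEC17 against 49.3 to 50.5 in the other 3 libraries of KEC17-23. CCN4 was at 61.9 CPM in KEC13 against 32.4 to 35.2 in the other 3 libraries of KEC9-15. CCN4 was at 3.37 CPM in KEC17 against 5.20 to 5.29 in the other 3 libraries of KEC17-23. ATAD2 was at 115 CPM in KEC17 against 96.5 to 98.8 in the other 3 libraries of KEC17-23. TNFSF13B was at 13.4 CPM in KEC1 against 8.84 to 9.57 in the other 3 libraries of KEC1-7. F2R was at 4.60 CPM in KEC19 against 3.07 to 3.11 in the other 3 libraries of KEC17-23. UHRF1 was at 58.5 CPM in KEC15 against 71.2 to 73.2 in the other 3 libraries of KEC9-15. GADD45A was at 25.2 CPM in KEC13 against 28.3 to 28.9 in the other 3 libraries of KEC9-15. FOSL2 was at 154 CPM in KEC23 against 177 to 179 in the other 3 libraries of KEC17-23. ULK1 was at 90.04 CPM in KEC3 against 105 to 107 in the other 3 libraries of KEC1-7. ST8SIA6 was at 2.15 CPM in KEC11 against 0 to 0.0969 in the other 3 libraries of KEC9-15. ST8SIA6 was at 28.3 CPM in KEC23 against 0 to 2.83 in the other 3 libraries of KEC17-23. ST8SIA6 was at 1.35 CPM in KEC27 against 0 to 0.0717 in the other 3 libraries of KEC25-31. 

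The contact difference differed between the plasmid blocks, by the interaction test itself, in 42 of the 72 named genes. The named genes were picked for a low p, so this share follows from the naming rule. Of all 14690 genes tested, 436 (2.97%) were called. Positive log2 interactions were those of AEBP1 (2.48), BGN (1.84), THBS2 (2.38), ADAM19 (2.07), MMP2 (2.75), COL6A1 (1.99), PTN (1.86), CCN4 (2.26) and DES (2.71). The values of LOXL1 (1.94), ST8SIA1 (1.84), SIAE (2.06), CLU (2.62), F2R (1.75), F3 (2.34), TBXA2R (0.93) and GADD45A (0.85) were positive too. So were those of EGR2 (2.19), EGR1 (1.19), COL6A2 (1.86), ENG (1.86), WIPI1 (1.41) and ULK1 (0.60). Negative log2 interactions were those of RMI2 (-1.70), GALNT14 (-2.37), MMS22L (-1.17), DTL (-1.57), TIMELESS (-1.38), ATAD2 (-1.57), ADM (-2.05), UNG (-1.16) and DSCC1 (-1.79). The values of CYP26B1 (-2.05), IL6 (-3.46), EGLN3 (-1.65), ANKRD37 (-1.66), CDC45 (-1.61), CDC6 (-1.95), UHRF1 (-1.74), STC2 (-1.11), STIP1 (-0.73) and OCLN (-1.11) were negative too. Of these 42 genes, 20 were called with any 1 library left out, and the others lost the call in 1 to 12 of 16 fits. Without the 4 libraries whose label disagrees only AEBP1 of the 42 was called.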

How the results depend on the processing

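Over 16 libraries 297 genes were called positive and 139 negative. Without KEC29 and KEC31 the counts were 57 and 21, and without the 4 libraries whose label disagrees 1 and 0, where 1807 genes had an unadjusted p under 0.05. Without KEC25 and KEC27 they were 2068 and 1701, and without KEC1 and KEC3 2154 and 1698. DESeq2 called 920 and 535, and limma-voom 181 and 152. Alternatives added after the data were seen were the first 2 libraries of each block (1061 and 1239), the last 2 (3453 and 2730) and a term for this split (896 and 906). With 1 library left out the counts ran from 63 to 810 and from 11 to 420. Other scaling, filtering, the non-robust fit and a least log2 change of 1 kept both counts within 1.5 times. The median of all genes lay between -0.01 and 0.07 (log2) in every alternative. ST8SIA6 kept its sign, at -2.24 and -1.51 with pseudocounts of 0.1 and 1 and at -2.51 to -0.56 with 1 library left out.

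Over the 72 named genes and all alternatives, 1784 of 2223 values kept sign and side of the threshold, 265 lost the call, 167 gained it and 7 reversed, none of them in a called gene. CYTB was at 0.168 without KEC29 and KEC31 and at 0.0923 in the first 2 libraries of each block, and SLA-DQB1 at -0.0175 in the first 2. CD247, a T cell receptor subunit, was at -0.62 without KEC1 and KEC3 and -0.33 in the last 2. With 1 library left out it ran from -0.0936 (without KEC1) to 0.341, and was at -0.0507 without KEC3. The cause of these changes was not tested. No paired analysis was possible because the labels give no replicate numbers and do not tie libraries to experiments. The term for the first and last 2 libraries, a split seen in the data and not in the labels, gave a call to 19 of the 72 named genes and took none away. Calls gained with a term picked from these data are no independent support. The depth of 14867035 to 33301008 counts limits low genes such as ST8SIA6, and 4 libraries a block limit small interactions.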

Other observations

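The following genes outside the lists were picked because they were called, after their values were seen, and uncalled members of the same pathways were not counted. HEYL, a transcription factor induced by Notch, was at 1.14, 0.961, 1.09 and 1.24 CPM in KEC1, KEC3, KEC5 and KEC7, and 0.203, 0.183, 0.460 and 0.453 CPM in KEC9, KEC11, KEC13 and KEC15. It was at 0.151, 0.186, 0.666 and 0.387 CPM in KEC17, KEC19, KEC21 and KEC23, and 1.25, 2.30, 1.004 and 2.38 CPM in KEC25, KEC27, KEC29 and KEC31. KEC1-7 and KEC25-31, at 0.961 CPM or more, did not overlap KEC9-15 and KEC17-23, at 0.666 CPM or less, although levels were low, and the interaction was 4.07 ± 0.65 (adjusted p = 0.0081). NOTCH3, the Notch receptor of pericytes and smooth muscle, had block means of 171 ± 82.5, 107 ± 13.7, 27.8 ± 5.23 and 85.01 ± 35.7 CPM (SD, n = 4) and an interaction of 2.29 ± 0.46 (adjusted p = 0.023). The Notch target HES1 (0.91 ± 0.18, adjusted p = 0.021) and LFNG, a glycosyltransferase that modifies Notch (1.14 ± 0.26, adjusted p = 0.032), were called as well. The PDGF ligands PDGFA (0.76 ± 0.20, adjusted p = 0.048) and PDGFB (1.39 ± 0.33, adjusted p = 0.041), and CSPG4, the pericyte proteoglycan NG2 (61.1 ± 13.6, 39.2 ± 13.6, 52.1 ± 22.96 and 164 ± 58.8 CPM, 2.29 ± 0.45, adjusted p = 0.022), were positive calls beside PDGFRB. So were NES, the intermediate filament nestin (184 ± 59.3, 147 ± 44.5, 37.2 ± 5.62 and 107 ± 24.9 CPM, 1.86 ± 0.35, adjusted p = 0.019), and LMOD1, an actin nucleator of smooth muscle (16.04 ± 2.89, 6.05 ± 1.76, 7.28 ± 1.40 and 11.8 ± 3.35 CPM, 2.10 ± 0.34, adjusted p = 0.0081). None of these genes was called without the 4 libraries whose label disagrees. Without KEC29 and KEC31 the interactions of HEYL (4.09) and LMOD1 (2.24) were slightly higher. Those of NOTCH3 (1.615), HES1 (0.86), LFNG (0.90), CSPG4 (1.74), PDGFA (0.69), PDGFB (0.75) and NES (1.57) were lower. PDGFB was at 66.6 and 66.0 CPM in KEC25 and KEC27, against 125.5 and 149 CPM in KEC29 and KEC31.

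The genes in this paragraph were picked in the same way, and say nothing of how many replication genes were tested or called. The catalytic subunit of DNA polymerase alpha, POLA1, had block means of 27.8 ± 9.17, 45.8 ± 6.52, 43.4 ± 1.67 and 28.5 ± 4.73 CPM and an interaction of -1.33 ± 0.28 (adjusted p = 0.024). Its partner POLA2 (-1.19 ± 0.28, adjusted p = 0.038), the initiation factor MCM10 (-1.79 ± 0.41, adjusted p = 0.033), the origin recognition subunit ORC1 (-1.68 ± 0.43, adjusted p = 0.048), DNA ligase LIG1 (-0.93 ± 0.20, adjusted p = 0.028) and the checkpoint mediator CLSPN (-1.58 ± 0.34, adjusted p = 0.029) were called negative. RBL2, a pocket protein that represses E2F targets in resting cells, was a positive call (42.6 ± 11.4, 26.2 ± 6.08, 19.6 ± 2.08 and 27.5 ± 5.05 CPM, 1.19 ± 0.28, adjusted p = 0.038). STRA6, the cell-surface receptor for retinol-binding protein, was a positive call (97.5 ± 43.1, 56.01 ± 10.8, 25.9 ± 8.01 and 74.7 ± 31.3 CPM, 2.33 ± 0.48, adjusted p = 0.024), while CYP26B1, the retinoic acid hydroxylase, was a negative one.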
